A study of Mus musculus with 93 samples.

Results

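Among 38 single olfactory sensory neurons of the Late Immature and Mature Neuron stages, 6 cells expressed Nqo1 at an FPKM of 10 or more (Nqo1-high cells) and 26 cells had an FPKM under 1 (Nqo1-low cells). The other 6 cells lay between and were left out. The 32 cells in the comparison belong to a set of 85 cells. The classes were chosen by the Nqo1 FPKM of each cell, so Nqo1 is given as a description with no test, and every other gene was compared between the classes. FPKM is the number of fragments per kilobase of transcript, scaled to the mapped fragments of the library.

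Nqo1 encodes a quinone reductase of the detoxification system, and in the mouse olfactory epithelium it marks sensory neurons of the dorsal zone. Neurons of the ventral zones carry the adhesion molecule encoded by Ncam2. Each mature neuron expresses 1 odorant receptor gene (Olfr), chosen from those used in its zone, and its axon runs to a matching part of the olfactory bulb. Class I receptors, whose genes form a single cluster, are used mostly in the dorsal zone. Class II receptors are used in all zones, each within a band of the epithelium.

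All cells were hand-picked from dissociated olfactory epithelium of C57BL/6 mice, and their cDNA was made from poly(A) RNA by oligo(dT) priming and PCR. The study asked how odorant receptor expression develops. Both classes hold cells of the Late Immature and the Mature Neuron stage: 4 of 6 Nqo1-high cells and 17 of 26 Nqo1-low cells are Mature. Ages, treatments and animals are not given in the labels, and no zone was recorded for any cell. With no animal named, each class counts as 1 sample. So no test or p-value is given, SDs are over cells, and exact Clopper-Pearson 95% intervals of shares cover counting error only.

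The cells carry numbers that fall into separate ranges, whose meaning the labels do not give. Of the Nqo1-high cells, 5 of 6 are in D213 to D274 and 1 (D343) is in D316 to D434. Of the Nqo1-low cells, 9 of 26 are in D213 to D274, 9 are in D316 to D434, 6 are in D29 to D97 and 2 are in D168 to D205. Mitochondrial genes took a median of 79.0% of the FPKM in Nqo1-high cells and 55.9% in Nqo1-low cells, and within D213 to D274 81.1% in Nqo1-high and 73.7% in Nqo1-low cells. These are shares of FPKM, which is scaled by transcript length, and not shares of fragments. The depth was recovered from the smallest step between FPKM values. Its median was 2.70 fragments per unit of FPKM and kilobase in Nqo1-high cells and 5.28 in Nqo1-low cells. Within D213 to D274 the median depth was 1.40 in Nqo1-high cells and 3.51 in Nqo1-low cells, so the classes differed in depth there too. The part of these differences in the results below was not tested, and values within D213 to D274 stand beside the pooled ones where they ended a call or differed by over 1.5 times, and for some other genes.

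Nqo1 reached an FPKM of 1164 in D240, 733 in D259, 662 in D255, 472 in D343, 30.8 in D230 and 27.3 in D245. In the Nqo1-low cells it was between 0 and 0.941, with a median of 0.176, and it was listed at 0 in 10 cells. The gap around the upper limit ran between 27.3 in D245 and 7.97 in D250, the highest cell left out. At the lower limit, D232 at 0.941 and D274 at 0.938 fell just inside the Nqo1-low class, and D251 at 1.05 fell just outside it. At the depth of each cell these values stand for 59.4 to 6954 fragments in the Nqo1-high cells and for at most 6.27 in the Nqo1-low cells. The Nqo1-high class thus joins 4 cells at 472 to 1164 and 2 cells at 27.3 and 30.8.

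Nqo1 lies on the minus strand of mouse chromosome 8 (mm10, chr8:107388225-107403206). A known activator of Nqo1 is NRF2, encoded by Nfe2l2, which binds antioxidant response elements. The 250 bases before the RefSeq start of both genes (build GRCm38.p6) are shown because Nfe2l2 itself was lower in the Nqo1-high cells, as given further below. Capitals mark TGACNNNGC, the core of that element, searched on both strands.
Nqo1 (chr8:107403206-107403455, minus strand): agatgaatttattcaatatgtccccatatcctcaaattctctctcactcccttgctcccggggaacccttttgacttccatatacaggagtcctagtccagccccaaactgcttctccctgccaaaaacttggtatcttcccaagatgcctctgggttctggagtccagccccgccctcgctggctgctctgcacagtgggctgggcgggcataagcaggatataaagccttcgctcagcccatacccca
Nfe2l2 (chr2:75704664-75704913, minus strand): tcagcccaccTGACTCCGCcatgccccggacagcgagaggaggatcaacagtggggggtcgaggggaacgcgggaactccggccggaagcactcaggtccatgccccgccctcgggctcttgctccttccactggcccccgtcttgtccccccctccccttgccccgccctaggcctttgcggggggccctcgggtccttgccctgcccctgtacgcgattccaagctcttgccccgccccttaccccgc
The core stands at base 11 of the Nfe2l2 window, and these letters are not in the Nqo1 window. The window covers only 250 bases, so it does not show whether Nqo1 has the element further from its start. A match describes the letters and is not evidence of binding.

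The other zone genes matched the Nqo1 classes in part. Acsm4 (chr7:119690026-119714567), an acyl-CoA synthetase gene and a further marker of the dorsal zone, had an FPKM of 549 in D230, 355 in D343 and 45.6 in D255. It was at 0.153 in D259 and at 0 in D240 and D245. In Nqo1-low cells it ranged over 0 to 255.1 with a median of 0.192. It reached an FPKM of 10 in 3 of 6 Nqo1-high cells (50%, interval 11.8 to 88.2%) and in 2 of 26 Nqo1-low cells (7.69%, interval 0.946 to 25.1%), namely D274 at 255.1 and D253 at 49.1. The difference of mean log2(FPKM + 1), Nqo1-high minus Nqo1-low, was 3.03 (3.89 ± 4.35 against 0.86 ± 1.83, SD over 6 and 26 cells) and 0.91 within D213 to D274. The SD within the Nqo1-high class exceeded that difference, and Acsm4 did not follow Nqo1 in every cell. The difference was 8.36 among Late Immature Neuron cells, where D230 and D343 are the Nqo1-high ones, and 0.35 among Mature Neuron cells.

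Robo2 (chr16:73892306-74411785), the axonal receptor for Slit proteins that helps dorsal axons reach the dorsal bulb, was at 233.12 in D255, 125 in D343, 103 in D245 and 88.4 in D259. It was at 2.93 in D230 and 0.352 in D240. In Nqo1-low cells Robo2 ranged over 0.0503 to 99.0 with a median of 0.366. The classes overlapped, since 4 of 6 Nqo1-high cells and 9 of 26 Nqo1-low cells reached an FPKM of 10. The difference was 2.92 log2 units (5.07 ± 3.07 against 2.16 ± 2.24) and 2.91 within D213 to D274. Robo2 met the rule for a call given below, but not without D245, D255, D259 or D343. Its difference was 4.28 among Mature and 0.31 among Late Immature Neuron cells. Sema3f, which encodes a secreted repellent made by dorsal axons, was at most 0.0708 in Nqo1-high cells and 1.002 in Nqo1-low cells.

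Ncam2 (chr16:81200697-81624285), the ventral marker, was under 1 in 5 of 6 Nqo1-high cells, between 0.132 and 0.804, and was at 44.9 in D343. In Nqo1-low cells it ranged over 0.123 to 296 with a median of 4.64. It reached 10 in 1 of 6 Nqo1-high cells (16.7%, interval 0.421 to 64.1%) and in 12 of 26 Nqo1-low cells (46.2%, interval 26.6 to 66.6%). In 13 of 26 Nqo1-low cells Ncam2 was under 1. The difference was -1.67 log2 units (1.33 ± 2.06 against 3.001 ± 2.78) and -2.75 within D213 to D274. Without D343 it was -2.50. D343 was the only one of these 32 cells with Acsm4 and Ncam2 both at 10 or more. Both were under 10 in 3 of 6 Nqo1-high cells and in 12 of 26 Nqo1-low cells.

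Nrp2 (chr1:62703285-62818695), the neuropilin that receives the Sema3F signal on ventral axons, was between 0.0240 and 0.782 in all 6 Nqo1-high cells. In Nqo1-low cells it ranged over 0 to 103 with a median of 2.88. Nrp2 reached 10 in 0 of 6 Nqo1-high cells (interval 0 to 45.9%) and in 11 of 26 Nqo1-low cells. The difference was -2.13 log2 units (0.42 ± 0.31 against 2.55 ± 2.33) and -1.15 within D213 to D274, where 2 of 9 Nqo1-low cells reached 10. Nfia, Nfib and Nfix encode nuclear factor I proteins, which have been tied to receptor choice in ventral zones. At least 1 of them reached 10 in 3 of 6 Nqo1-high cells and in 19 of 26 Nqo1-low cells. Nfib was at 29.3 in D230 and at most 0.681 in the other Nqo1-high cells, against 0.0653 to 138 in Nqo1-low cells, a difference of -1.76 (-1.45 within D213 to D274). The differences of Nfia and Nfix were -0.23 and 0.32 (-0.89 and 0.53 within D213 to D274). All 5 ventral genes were under 10 in 3 of 6 Nqo1-high cells (D245, D255 and D259) and in 4 of 26 Nqo1-low cells (interval 4.36 to 34.9%).

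**Figure D1:**
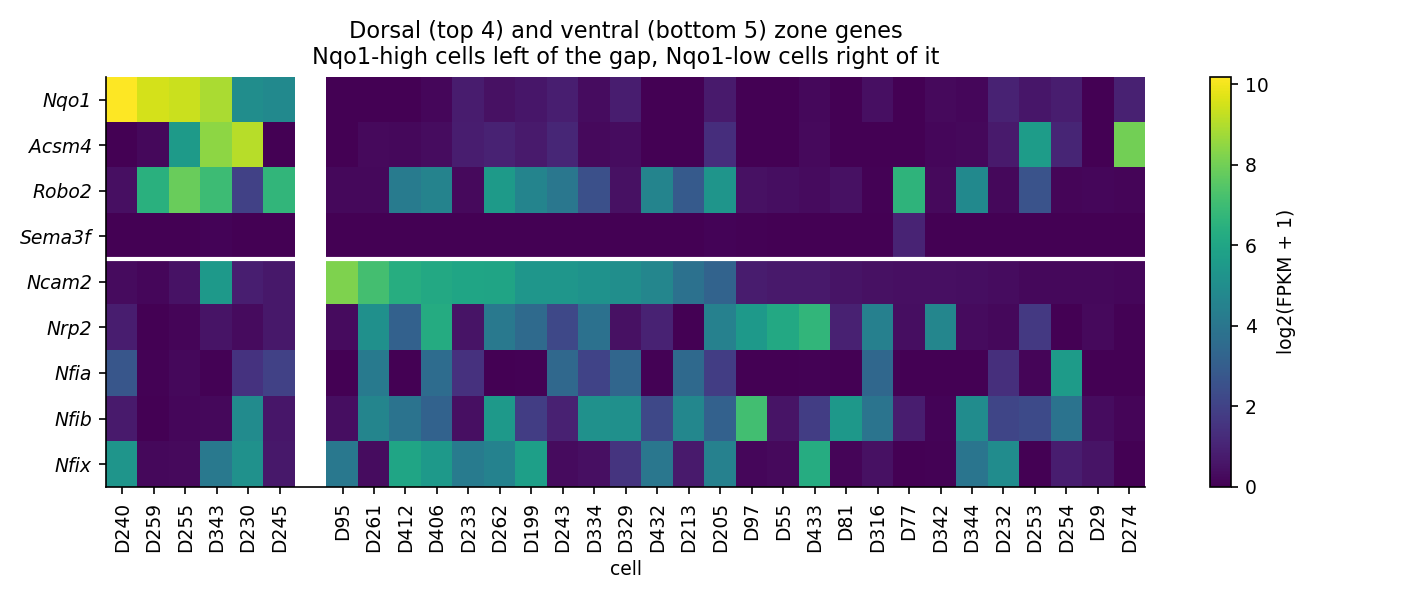
Heat map of log2(FPKM + 1) for 4 dorsal zone genes (top rows) and 5 ventral zone genes (bottom rows) in 6 Nqo1-high cells (left, ordered by Nqo1) and 26 Nqo1-low cells (right, ordered by Ncam2). The Nrp2 row is dark in all 6 Nqo1-high cells, with at most 0.782 FPKM, and Acsm4 is bright in 3 of them and in 2 Nqo1-low cells.

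A second library of the same cell existed for 5 of the 38 neurons and was not used for the classes. Nqo1 kept its class in D230 (30.8 and 1192), D233 (0.727 and 0.846) and D243 (0.817 and 0.612). In D250 and D251, both left out for values between the limits, it was at 7.97 and 2.01 and at 1.05 and 0.189. The level of Nqo1 in D230 differed between its libraries, and so did those of other zone genes. Acsm4 was at 549 in the first library of D230 and at 1.56 in its repeat, and Robo2 at 2.93 and 107. Ncam2 was at 63.2 and 0.224 in D233, at 39.5 and 1.58 in D243 and at 0 and 47.1 in D250. Over the 8 zone genes other than Nqo1 and these 5 cells, 40 pairs of values, 1 pair reached 10 in both libraries and 17 in only 1 of them. A value near 0 in a single library therefore does not show that a gene was off in that cell.

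Both classes expressed the marker of mature neurons. Omp, the olfactory marker protein of mature neurons, was between 1090 and 16776 in Nqo1-high cells (median 6225) and between 2724 and 35132 in Nqo1-low cells (median 5844). Gap43, the growth-cone protein of immature neurons, was at most 3.18 in Nqo1-high cells and reached 10 in 1 of 26 Nqo1-low cells. The authors' deposited pseudotime score, which orders cells along maturation and has no unit, had a median of 44.0 in Nqo1-high cells (35.9 to 48.1) and 41.1 in Nqo1-low cells (33.6 to 51.4). The range of the score in Nqo1-high cells lay within that of Nqo1-low cells, and Omp was below the lowest Nqo1-low value in 1 Nqo1-high cell, D259.

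For the comparison of all other genes, 4362 genes with an FPKM of at least 1 in 50% or more of the cells of either class were used. A gene was called higher where its mean log2(FPKM + 1) differed by at least 2 (4-fold) and the Nqo1-high cell was the higher one in at least 80% of all pairs of cells. It was called lower at -2 or less and 20% or less. By this rule 66 genes were higher (1.51% of those compared) and 51 were lower (1.17%) in Nqo1-high cells. They include 2 mitochondrial tRNA genes, mt-Tn and mt-Tw, with the largest differences (9.80 and 8.78), and 0 Olfr genes. The median difference over all compared genes was 0.14, and no gene had all 6 Nqo1-high cells above or all below the 26 Nqo1-low cells. The counts moved by over 1.5 times with the choice of cells. Without D259 or D240, 113 and 104 genes were called higher, and without D343 or D230, 111 and 82 were called lower. Of the called genes, 21 of 66 and 26 of 51 kept their call when any of the 32 cells was left out.

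**Figure D2:**
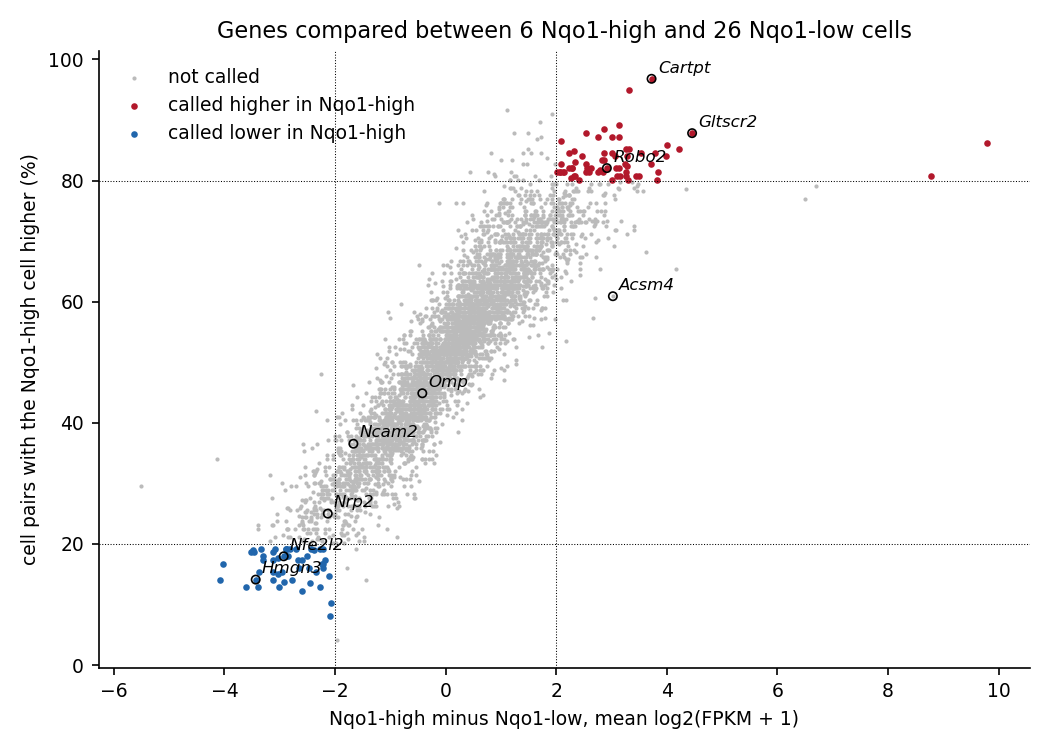
Each point is 1 of 4362 compared genes. The x axis gives the difference of mean log2(FPKM + 1), Nqo1-high minus Nqo1-low, the y axis the percentage of cell pairs in which the Nqo1-high cell was higher, and dotted lines mark the limits. Cartpt lies near the top at 96.8%, and Acsm4 lies at a difference of 3.03 and 60.9% of pairs, without a call.

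Of the genes called higher, Cartpt separated the classes best among the named genes. It lies at chr13:99898484-99900683 and encodes the precursor of the neuropeptide CART. Its FPKM was 3468 in D240, 2125 in D343, 1816 in D259, 1253 in D230, 1185 in D245 and 1151 in D255. In Nqo1-low cells it ranged over 4.69 to 1443 with a median of 285. In these libraries the Nqo1-high cells lay between 1151 and 3468, and 2 Nqo1-low cells (D77 at 1443 and D412 at 1241) reached into the lower end of that range. The repeat library of D230, the only one of an Nqo1-high cell, had Cartpt at 140.9, below the Nqo1-low median. The difference was 3.73 log2 units (10.72 ± 0.62 against 6.99 ± 2.89), the Nqo1-high cell was higher in 96.8% of pairs, and the difference was 4.34 within D213 to D274. It was 4.67 among Mature and 1.94 among Late Immature Neuron cells. With classes set by Ncam2 in place of Nqo1 (19 cells under 1 minus 15 at 10 or more), the sign turned for Cartpt (-0.42) and Robo2 (-0.99). In the repeat libraries of 8 cells Cartpt reached 10 in both libraries of 2 cells and in only 1 library of 4 cells.

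Further genes called higher belong to varied processes. Gltscr2, which encodes a nucleolar protein, was between 33.7 and 561 in Nqo1-high cells (median 194) and between 0.0774 and 423 in Nqo1-low cells (median 1.27). Its difference was 4.46 (4.19 within D213 to D274), and it kept its call without any single cell. Pttg1, which encodes securin, was at 12 in D240 and between 255.5 and 834 in the other Nqo1-high cells, against 0 to 731 in Nqo1-low cells (median 4.06), a difference of 4.01. Derl2, a gene of endoplasmic reticulum protein disposal, differed by 4.22 and Hn1 by 3.98, and each was under 1 in at least 1 Nqo1-high cell (Derl2 at 0.0639 and Hn1 at 0.459 in D255). Prelid1, a lipid transfer gene of mitochondria, differed by 3.79, Drg1, which encodes a GTPase, by 3.53, and both kept their call without any single cell. Mrps33, of the mitochondrial ribosome, was between 156 and 693 in all Nqo1-high cells and between 0.294 and 776 in Nqo1-low cells (median 15.8), a difference of 3.499.

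The calls of 5 genes among the 12 highest differences, and that of Robo2, ended when a single Nqo1-high cell was left out. These were Cyp2a5 (3.85), a cytochrome P450 gene of the olfactory mucosa, Emd (3.83), which encodes emerin of the nuclear envelope, and Coq7 (3.71), of ubiquinone synthesis. Chn1 (3.44, and 2.52 without a call within D213 to D274), a Rac GTPase-activating gene that acts in axon guidance, and Mrps33 complete the 5. Leaving out D255 ended the call of all 5 and of Robo2. D230, D240 or D245 also ended those of Cyp2a5 and Emd, D240 or D245 that of Coq7, D230 that of Mrps33, and D245, D259 or D343 those of Chn1 and Robo2. Coq7 differed by 5.61 among Mature and by -0.13 among Late Immature Neuron cells.

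The genes called lower in Nqo1-high cells also belong to varied processes. Hmgn3, which encodes a nucleosome-binding protein, was at 603 in D245, 561 in D343, 129 in D230, 28.3 in D240, 5.30 in D255 and 2.07 in D259. In Nqo1-low cells it ranged over 12.1 to 2819 with a median of 778. The difference was -3.43 (5.76 ± 3.25 against 9.19 ± 1.78) and -4.48 within D213 to D274. Eef1g, a translation elongation factor gene, was at 16.8 in D230 and at most 2.65 in the other Nqo1-high cells, against 0.738 to 541 in Nqo1-low cells (median 66.8). Its difference was -3.62 (-3.30 within D213 to D274). Mfsd1, a lysosomal transporter gene, was at 126 in D343 and at most 1.46 in the other 5, against 0.252 to 538 in Nqo1-low cells (median 114), a difference of -4.03.

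Psmc4, of the proteasome, was between 0.183 and 4.02 in Nqo1-high cells and between 0.201 and 913 in Nqo1-low cells (median 54.0), a difference of -3.52. Within D213 to D274 it differed by -1.96, with the Nqo1-high cell higher in 33.3% of pairs, and met neither limit of a call. Lamtor5, of the lysosomal Ragulator complex, differed by -3.49, and Mkrn1, a ubiquitin ligase gene, by -3.30. All 3 were under 10 in every Nqo1-high cell and reached 10 in 15, 15 and 16 of 26 Nqo1-low cells. Naaa, a lysosomal amidase gene, differed by -3.46, Lingo2, a neuronal leucine-rich repeat gene, by -3.40, and Atp9a, a lipid flippase gene, by -3.38. Mrpl33, of the mitochondrial ribosome, differed by -3.33, BC004004 by -3.30 and Atp5d, of the ATP synthase, by -3.12. In each of these 6 genes the classes overlapped. Within D213 to D274 the calls of Lamtor5 (-4.14), Mrpl33 (-3.24) and Atp5d (-2.57) also ended, with the Nqo1-high cell higher in 23.3%, 26.7% and 22.2% of pairs. The call ended without D255 for Psmc4, without D240 for Lamtor5 and without D343 for Mkrn1. It ended without D245, D255 or D259 for Naaa, without D240 or D245 for Mrpl33 and without D240 or D255 for BC004004.

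**Figure D3:**
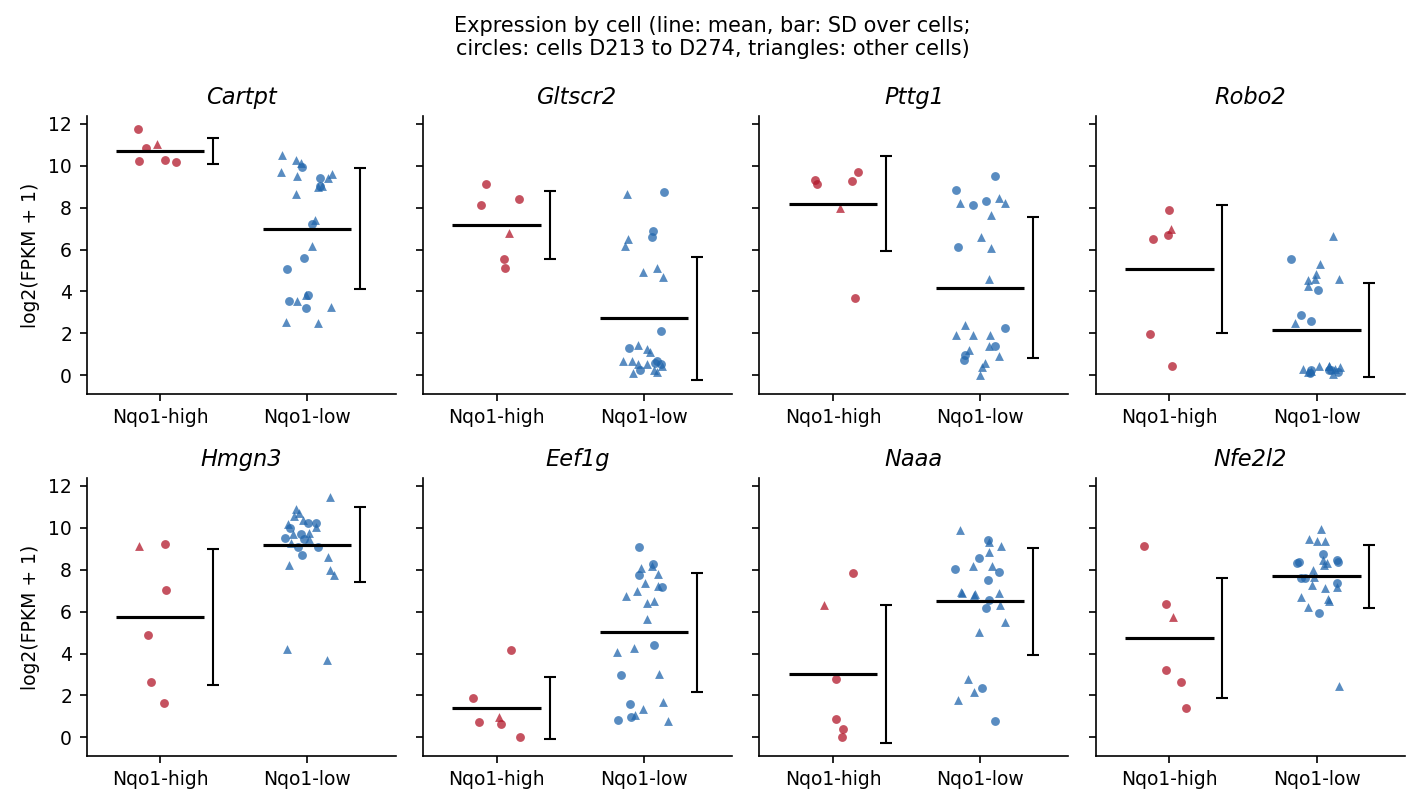
log2(FPKM + 1) of 8 genes in each of 6 Nqo1-high cells (left of each panel) and 26 Nqo1-low cells (right). Lines are means, bars are SDs over cells, circles are cells D213 to D274 and triangles the others. The Nqo1-high points of Cartpt lie between 1151 and 3468 FPKM, while those of Hmgn3 run over 2.07 to 603 and those of Nfe2l2 over 1.67 to 559.

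From the called genes outside the naming rule 4 are given here, 2 higher and 2 lower. They were chosen after their values were seen and stand for no group. Scn3b, a sodium channel subunit gene, was detected in 6 of 6 Nqo1-high cells and 19 of 26 Nqo1-low cells and differed by 2.15 (6.04 ± 1.85 against 3.89 ± 2.60). Within D213 to D274 it differed by 4.002, with the Nqo1-high cell higher in 100% of pairs. Kcnk10, a potassium channel gene, was detected in 5 of 6 Nqo1-high and 8 of 26 Nqo1-low cells and differed by 3.01. Kcnip4, whose product binds potassium channels, was detected in 0 of 6 Nqo1-high and 15 of 26 Nqo1-low cells, a difference of -3.03 (-1.80 within D213 to D274). Drd2, the dopamine receptor gene, was detected in 1 of 6 Nqo1-high and 14 of 26 Nqo1-low cells, a difference of -2.24 (-1.96 within D213 to D274). Kcnip4 and Drd2 were not called within D213 to D274. In Early Immature Neuron cells, 0 of these 4 genes passed the detection limit for comparison.

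Among 22 genes of redox and xenobiotic metabolism that were compared, Nqo1 aside, 0 were called higher and 1 was called lower. Over all compared genes 1.51% were called higher and 1.17% lower, and counts this small do not set the list apart from those shares. Their median difference was -0.50 (0.08 within D213 to D274), against 0.14 for all genes. The gene called lower was Nfe2l2. It was at 559 in D259, 80.8 in D230, 53.4 in D343, 8.13 in D245, 5.33 in D240 and 1.67 in D255. In Nqo1-low cells Nfe2l2 ranged over 4.44 to 986 with a median of 227. The difference was -2.93 (4.75 ± 2.85 against 7.68 ± 1.49) and -3.31 within D213 to D274. The call ended without D240, D245, D255 or D343, and within D213 to D274, where the Nqo1-high cell was higher in 22.2% of pairs. Prdx2, Txn1 and Prdx5, which encode peroxide and thiol reducing enzymes, differed by -2.34, -1.64 and -1.58 without a call (-2.71, -3.46 and -2.39 within D213 to D274, where Txn1 met the limits of a call).

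The antioxidant response element core was counted in the promoters of called genes. In the RefSeq windows of 300 bases, 250 before and 50 after the start, TGACNNNGC stood in 7 of 49 promoters of genes called higher (14.3%) and in 9 of 41 of genes called lower (21.95%). It stood in 541 of 3170 promoters of all compared genes (17.1%) and in 13.99% of all 27025 promoters of the table.

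In the other groups at most 1 member was called, counts that do not set a list apart from the 1.51% called higher and 1.17% called lower over all genes. Of 18 compared genes of odorant transduction 0 were called, with a median difference of 0.00 (0.21 within D213 to D274). Ano2, the ciliary chloride channel gene, differed by -1.81 and Cnga4, a channel subunit gene, by 0.85 (-0.97 and 1.42 within D213 to D274). Of 18 axon guidance genes, Robo2 was called higher, the median was 0.41 (0.21 within D213 to D274), and Epha7, an ephrin receptor gene, differed by 1.81 (0.996 within D213 to D274). Among 13 immature neuron genes 0 were called (median -0.28), with Stmn4, a microtubule regulator gene, at -2.40 and Tubb3, a neuronal tubulin gene, at 1.499. Among 18 regulators of receptor expression 0 were called (median 0.44). Emx2, a homeobox gene, differed by -2.36 (-1.35 within D213 to D274). Atf5, the transcription factor gene of receptor feedback, was between 464 and 1167 in Nqo1-high cells and between 28.6 and 1399 in Nqo1-low cells, a difference of 1.24.

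Fatty acid and acyl-CoA genes had a median of 0.37 over 12 members (-0.04 within D213 to D274) with 0 called, and Etfb, of mitochondrial electron transfer, differed by 2.86. Retinoid genes had a median of 0.57 over 5 members (1.52 within D213 to D274) with 0 called. Cyp26b1, which encodes an enzyme that breaks down retinoic acid, reached 10 in 3 of 6 Nqo1-high cells and 3 of 26 Nqo1-low cells and differed by 2.93. Genes of the unfolded protein response had a median of -0.57 over 12 members with 0 called, and Canx, which encodes calnexin, differed by -2.64. Over 12 housekeeping genes the median was -0.20 (-0.11 within D213 to D274) with 0 called, although Ppia had 1.47 and Eef2 had -1.22. Differences of over 1 log2 unit therefore also occurred among genes that every cell uses.

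Genes of another cell type were also higher on median in Nqo1-high cells. Sustentacular cells, the supporting cells of the epithelium, are rich in detoxification enzymes. Of 16 listed sustentacular genes 9 were compared, 8 of them above 0, with a median of 1.41 (1.40 within D213 to D274), and 1 (Cyp2a5) was called higher. The FPKM summed over the list was 235 to 6316 in Nqo1-high cells (median 1309) and 2.19 to 4089 in Nqo1-low cells (median 686), and 0 of the listed genes were under 1 in all cells. Cbr2, a carbonyl reductase gene, reached 3764 in D230, and Sult1c1, a sulfotransferase gene, 759 in D230 and 551 in D240. At least 3 members of a list of another cell type reached an FPKM of 100 in 3 of 6 Nqo1-high cells (D230, D240 and D245) and in 5 of 26 Nqo1-low cells. Nqo1 was at 1164 in D240, 30.8 in D230 and 27.3 in D245, and at 472 to 733 in D255, D259 and D343, which did not meet that limit. Missing the limit does not mean absence, since the sustentacular list summed to at least 235 in every Nqo1-high cell. Without the 8 cells, which left D255, D259 and D343 as Nqo1-high cells, Robo2 differed by 4.51, Acsm4 by 4.12 and Cartpt by 3.60. Of the compared genes, 7.01% were then called higher and 4.55% lower, over fewer cells than in the pooled comparison. The part of RNA of other cell types in Nqo1 and in the other called genes was not tested. Of the horizontal basal cell list, 6 of 6 genes were under 1 in all 32 cells. The summed blood and immune list had a median of 0.351 in Nqo1-high cells (at most 134) and 0.111 in Nqo1-low cells (at most 153). For the glia and ensheathing list the medians were 0.904 (at most 1020) and 1.21 (at most 384). The respiratory list summed to at most 54.5 and 1403. Over 3 compared stromal and endothelial genes the median difference was 1.12 (0.55 within D213 to D274). Of the stress and immediate early genes 3 were compared (Jun, Ier2 and Dusp1), with 0 called and a median of -1.68 (-1.85 within D213 to D274). Their list summed to 2.06 to 261.2 in Nqo1-high cells and 0.454 to 956 in Nqo1-low cells.

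Within D213 to D274, 5 Nqo1-high and 9 Nqo1-low cells, all 66 genes called higher and all 51 called lower had the same sign, and 52 and 21 of them passed the limits there. These cells are part of the pooled comparison, so the sign is not an independent check. Cells that the rule did not use were the 27 Early Immature Neuron cells. The same Nqo1 limits gave 5 Nqo1-high cells (95.8 to 237) and 21 Nqo1-low cells (at most 0.925) among them. Of 4213 genes compared, 204 were called higher (4.84%) and 36 lower (0.854%). Of the 66 genes called higher in the later cells 44 were compared. Of these, 28 had the same sign (63.6%, against 65.9% of all compared genes) and 1 was called higher. Of the 51 called lower 43 were compared, 16 had the same sign (37.2%, against 34.1%) and 0 were called lower. The share with the same sign was thus below that of all genes for those called higher and above it for those called lower, and neither difference was tested.

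The gene called in the same direction in both was Cdkl2, a kinase gene. It was between 1.39 and 220 in Nqo1-high cells (median 80.2) and between 0.0411 and 223.1 in Nqo1-low cells (median 17.5). Its difference was 2.33 (5.64 ± 2.30 against 3.31 ± 2.55). Among Early Immature Neuron cells it was between 26.8 and 77.9 in all 5 Nqo1-high cells and between 0 and 160 in Nqo1-low cells (median 3.91), a difference of 3.18. Cartpt differed there by 2.07 and Nfe2l2 by 0.01. Mrps33, called higher in the later cells, went the other way there. It differed by -3.40, with the Nqo1-high cell higher in 18.1% of pairs, which meets the limits of a lower call.

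**Figure D4:**
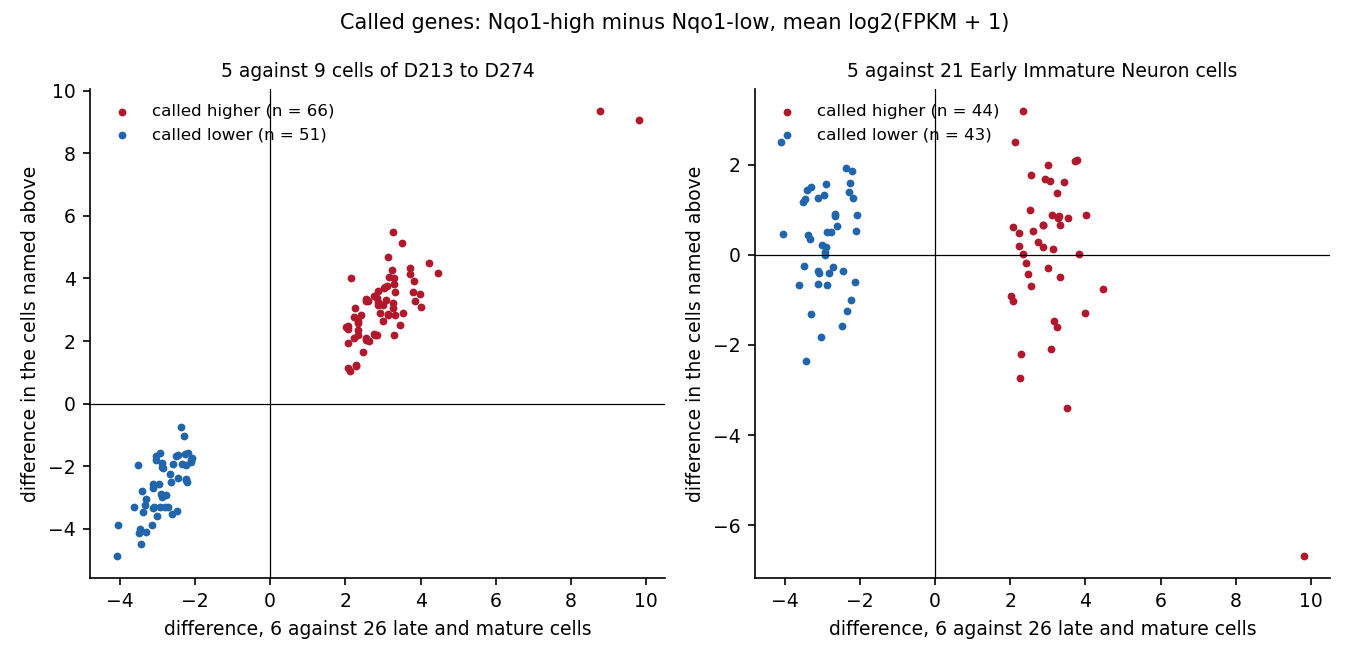
Genes called in the later cells, with their difference there (x axis, Nqo1-high minus Nqo1-low, mean log2(FPKM + 1)) against their difference within cells D213 to D274 (left) and in Early Immature Neuron cells (right), on axes of different range. All 66 red and 51 blue points keep their sign on the left, and 28 of 44 red and 16 of 43 blue points do on the right. The far points at the right of each panel are mitochondrial tRNA genes.

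Zone genes also followed the Nqo1 classes in part in Early Immature Neuron cells. Robo2 was at 116 in D362, 55.3 in D197, 18.02 in D168, 17.96 in D347 and 17.12 in D192, and it ranged over 0 to 70.8 in Nqo1-low cells (median 12.97). Acsm4 was at 1288 in D168, 108 in D192, 54.1 in D347, 1.42 in D197 and 0 in D362, and reached 10 in 2 of 21 Nqo1-low cells. Ncam2 was at most 3.42 in Nqo1-high cells and reached 10 in 7 of 21 Nqo1-low cells. Nrp2 was at 22.4 in D197 and at most 0.249 in the other 4, and reached 10 in 11 of 21 Nqo1-low cells. None of Nfia, Nfib and Nfix reached 10 in any of the 5 Nqo1-high cells (0 of 5, interval 0 to 52.2%), while at least 1 did in 16 of 21 Nqo1-low cells (76.2%, interval 52.8 to 91.8%). All 5 ventral genes were under 10 in 4 of 5 Nqo1-high cells and 4 of 21 Nqo1-low cells. The top receptor was Olfr860 (9610, chromosome 9) in D192, Olfr791 (2691, chromosome 10) in D362, and Olfr1013 (1968) and Olfr1104 (367.5) of chromosome 2 in D168 and D197. In D347 no Olfr gene exceeded 3.39. Of these cells, 3 of 5 Nqo1-high and 3 of 21 Nqo1-low ones are in D168 to D205.

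The top receptor of each cell was the Olfr gene with the highest FPKM, counted where it reached 100. This held for 6 of 6 Nqo1-high cells and 24 of 26 Nqo1-low cells. The 6 Nqo1-high cells had 6 different top receptors on 5 chromosomes. They were Olfr871 in D240 (18382 FPKM, chromosome 9), Olfr987 in D255 (17840, chromosome 2) and Olfr450 in D245 (12204, chromosome 6). The others were Olfr60 in D230 (2152, chromosome 7), Olfr1055 in D259 (1798, chromosome 2) and Olfr1505 in D343 (1148, chromosome 19). In D230 Olfr60 held 42.8% of all Olfr FPKM, and 8 Olfr genes reached 100, against a median of 1 in the class. In Nqo1-low cells 5 top receptors were on chromosome 2, 5 on chromosome 14 and 4 on chromosome 11. Chromosomes 7, 16 and 17 held 2 each, and chromosomes 4, 6, 15 and 19 held 1 each. Chromosomes 11 and 14, picked after the values were seen, held the top receptor of 0 of 6 Nqo1-high cells (interval 0 to 45.9%) and 9 of 24 Nqo1-low cells (37.5%, interval 18.8 to 59.4%), intervals that overlap.

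No cell of either class was led by a class I receptor, taken as an Olfr gene of the class I cluster on chromosome 7. The count was 0 of 6 Nqo1-high cells (interval 0 to 45.9%) and 0 of 24 Nqo1-low cells (interval 0 to 14.2%). The chromosome 7 receptors that led cells were class II genes: Olfr60 (chr7:140343807-140345987) in Nqo1-high D230, and Olfr524 (chr7:140198423-140202800) in D342 and Olfr291 (chr7:84853555-84859614) in D199, both Nqo1-low. Of 128 class I genes in the table, the highest value was 1.01 in Nqo1-high cells and 78.9 in Nqo1-low cells (Olfr685 in D274). D274 is the Nqo1-low cell with an Acsm4 of 255.1. In the whole series 4 cells were led by a class I gene, 3 of them Early Immature Neuron cells, and Nqo1 was at most 0.4932 in all 4. Of those 3, D371 and D200 had Acsm4 at 54.9 and 146, and D394 had 0.293 with Ncam2 at 107. In the repeat library of D200, led by Olfr570, Acsm4 was at 0.569.

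For each top receptor of an Nqo1-high cell, the nearest top receptor of an Nqo1-low cell on the same chromosome was located. Olfr450 of D245 was 72.5 kb from Olfr453, the top receptor of the Nqo1-low cell D213. Olfr60 of D230 was 141 kb from Olfr524 of D342. Olfr1055 of D259 was 302 kb and Olfr987 of D255 was 703 kb from Olfr1033 of D274. Olfr1505 of D343 was 1632 kb from Olfr1433 of D77. D274 was Nqo1-low by a small margin (0.938), with the dorsal marker Acsm4 at 255.1 and Ncam2 at 0.123. In D213, D342 and D77 Acsm4 was at most 0.138. No zone was recorded, so the distances do not show neighbouring receptors of different zones. Chromosome 9, with Olfr871 of D240, held 0 top receptors of Nqo1-low cells. In its repeat library D230 was led by Olfr810 (1440 FPKM) in place of Olfr60, while D233 and D243 kept Olfr325 and Olfr728. The receptor assigned to D230 therefore rests on its first library.

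TAATTA, a core of homeodomain binding sites that occur in receptor promoters, was searched on both strands of the same windows. It stood in 6.12% of all 27025 promoters. The window of Olfr1055 is shown because this receptor led an Nqo1-high cell and the window holds the motif, in capitals 48 bases before the start. It was picked for this match, and the motif was not counted over the other top receptors. The annotated gene spans chr2:86346724-86347764, and whether its start is that of transcription was not tested.
Olfr1055 (chr2:86347765-86348014, minus strand): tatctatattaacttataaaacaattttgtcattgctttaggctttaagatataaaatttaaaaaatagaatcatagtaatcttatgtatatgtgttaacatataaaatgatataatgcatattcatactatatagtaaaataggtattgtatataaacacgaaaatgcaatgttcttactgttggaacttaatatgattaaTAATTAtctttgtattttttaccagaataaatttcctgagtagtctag
TAATTA stood in 3 of 49 promoters of genes called higher (6.12%), 2 of 41 of genes called lower (4.88%) and 3.22% of those of all 3170 compared genes with a promoter.

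Receptor levels differed by less than the spread between cells. The top receptor had a mean log2 FPKM of 12.32 ± 1.83 in 6 Nqo1-high cells and 12.01 ± 1.63 in 24 Nqo1-low cells, a difference of 0.31 that was smaller than the SD of either class. Within D213 to D274 the difference was 0.90. Among these cells the top receptor held a median of 98.4% of all Olfr FPKM in Nqo1-high cells (42.8 to 99.6%) and 98.7% in Nqo1-low cells (41.4 to 99.8%). A median of 9.5 Olfr genes reached an FPKM of 1 in Nqo1-high cells and 8.5 in Nqo1-low cells. The 14 trace amine receptor genes were at 0 in all Nqo1-high cells and summed to at most 2.96 in Nqo1-low cells.

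**Figure D5:**
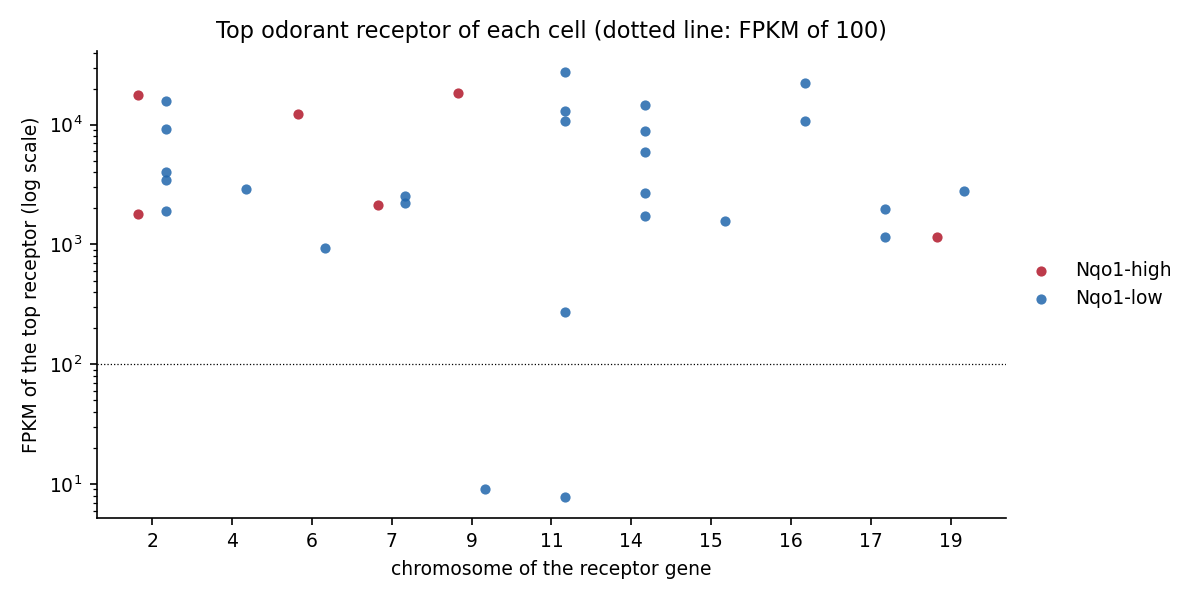
FPKM of the top receptor of each cell (log scale) by the chromosome of its gene, with Nqo1-high cells left and Nqo1-low cells right of each tick. The 6 Nqo1-high cells lie on chromosomes 2, 6, 7, 9 and 19, and chromosomes 11 and 14 hold Nqo1-low cells only. The 2 points under the dotted line, at 9.03 and 7.84, are cells whose top receptor stayed under 100.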

How the data were processed

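FPKM values were deposited by the authors for 93 libraries of 85 cells, 8 of them repeat libraries. Per the submitters' processing notes, the tools were Cufflinks 2.2.1, TopHat2 2.0.14, cutadapt 1.2.1 with Trim Galore, and CASAVA 1.8.2, on the build mm10. Stages and a pseudotime score per cell come from the authors' deposited table, and gene positions from the deposited annotation. The 32975 entries were reduced to 32640 symbols by the highest entry. The first library of each of 38 Late Immature and Mature Neuron cells was used. Members and gene lists were chosen with earlier results of these data known.

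Differences are means of log2(FPKM + 1) over Nqo1-high minus Nqo1-low cells. A fold on this scale understates changes of low genes. In cell pairs, ties counted 0.5. Named genes are the 12 highest and 12 lowest differences among called annotated genes, all zone genes and up to 4 members of each list. No replicate animals are named, so no test was made. PCR copies are not independent molecules, and intervals cover counting error only. Library totals of reads were not given in the sources used here. Python 3.11.15, numpy 2.4.6, pandas 2.3.3, scipy 1.17.1 and matplotlib 3.10.9 were used, and the calculation was tested on simulated data. Promoters are from RefSeq (GRCm38.p6). Alternatives changed the pseudocount, filter, class limits, cells and summary.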

Additional observations from a re-analysis of the deposited data

Results flagged for a closer look

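Of 44 groups of 5 or 6 cells examined, 9 had 1 cell far from the others. The limit used is passed by about 1 in 20 groups of independent, normally distributed values. Here the same cells recur over the groups and many genes were chosen by their calls, so that rate does not apply. Among the 6 Nqo1-high cells, D240 stood apart with a low Pttg1 (12 FPKM, against 255.5 to 834 in the others) and a low Prelid1 (3.72, against 311 to 2199). D343 stood apart with Mfsd1 at 126 (0.237 to 1.46 in the others), BC004004 at 97.9 (0.503 to 4.83) and Ncam2 at 44.9 (0.132 to 0.804). Its FPKM summed over genes, in units of 10 to the power of 6, was 1.32, against 3.04 to 4.82 in the others, and it is the only Nqo1-high cell outside D213 to D274. In Nqo1-low cells this sum ranged over 0.528 to 6.96 with a median of 1.69, so D343 lay within their range. D230 stood apart with Nfib at 29.3, against at most 0.681 in the others. Among the 5 Early Immature Nqo1-high cells, D192 had Ncam2 at 3.42 (0.0304 to 0.338 in the others) and D197 had Nrp2 at 22.4 (0.0274 to 0.249).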

How the results depend on the processing

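The shares of compared genes called higher (1.51%) and lower (1.17%) depended on the cells and the scale. They were 0.504% and 0.344% with a pseudocount of 10, 2.69% and 2.37% with Nqo1-high at 50 or more, and 5.11% and 4.77% with Nqo1-low at 0. They were 3.86% and 3.60% in Mature cells, 9.41% and 4.15% in Late Immature cells, 5.47% and 2.65% within D213 to D274, and 26.4% and 6.83% within D316 to D434, where D343 is the only Nqo1-high cell. Without cells with high genes of other cell types they were 7.01% and 4.55%, and with classes by Ncam2 0.0858% and 0.229% (3 and 8 genes). Leaving out 1 cell gave 1.49% to 2.80% (64 to 113 genes) and 1.14% to 2.89% (49 to 111 genes). Nqo1-high and Nqo1-low cells numbered 6 and 26 in the main comparison, and 4 and 26 with Nqo1-high at 50 or more. They numbered 6 and 10 with Nqo1-low at 0, 4 and 17 in Mature and 2 and 9 in Late Immature cells. Within D213 to D274 they were 5 and 9, and without cells of other-type genes 3 and 21. Both shares were larger in each of these smaller sets, which does not by itself show a larger difference between classes. The part of class size was not tested. As alternatives chosen after seeing the data, Nqo1-low cells with Ncam2 at 10 or more gave 2.01% lower, and Nqo1-high or Acsm4-high cells against cells low in both gave 0.728% higher.

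The Nrp2 difference was -2.98 and -0.91 with pseudocounts of 0.1 and 10, -1.53 by medians, -1.15 within D213 to D274, -2.90 within D316 to D434, -2.62 without cells of other-type genes and -0.56 by Ncam2 classes. Acsm4 differed by 8.36 in Late Immature cells and 8.27 within D316 to D434, where Ncam2 differed by 2.26. Robo2 differed by 6.14 by medians. The sign turned by Ncam2 classes for Robo2 (-0.99), Pttg1 (-0.76), Prelid1 (-0.78), Cartpt (-0.42), Drg1 (-1.24), Chn1 (-1.10) and Lamtor5 (0.37). It turned within D316 to D434 for Cyp2a5 (-0.62), Coq7 (-3.29), Mfsd1 (0.48) and BC004004 (1.21), and in Late Immature cells for Coq7 (-0.13). The causes were not tested. Leaving out 1 cell gave 1.98 to 3.80 for Acsm4, 2.36 to 3.84 for Robo2, -2.50 to -1.44 for Ncam2 and -2.23 to -1.96 for Nrp2. The share of Nqo1-high cells led by a chromosome 7 receptor was 0% in Mature cells, with Nqo1-high at 50 or more and without cells of other-type genes, and 0 to 20% leaving out 1 cell. The share of Nqo1-low cells was 0% with Nqo1-low at 0. Over 20 settings, 1505 of 1650 values stayed within a set limit. The limit was the SD over Nqo1-high cells for differences and medians, 1.5 times for counts and the interval for shares. This SD was wide, at 4.35 for Acsm4 and 3.07 for Robo2. Differences of 0.35 for Acsm4 in Mature cells and 0.31 for Robo2 in Late Immature cells therefore counted as within it. With limits this wide, the count does not show that the results were stable. The settings that changed only the detection filter could not move differences or list medians, 88 values in each, so the total overstates how little the results moved. No paired analysis was possible because replicate numbers were given in accession order and pair no cells, and no test was made. Low depth in single libraries limits statements on genes near 0.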
